A study of Mus musculus with 2 samples.

Results

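Iron handling genes carry iron into cells, store it, release it from heme and export it. Macrophages and their relatives use these genes to recover iron from engulfed red cells. The 8 genes described here were taken by symbol from the 31053 genes of the count tables: Tfrc, Slc11a2 and Slc11a1 (import), Fth1 and Ftl1 (storage), Slc40a1 (export), Hmox1 and Blvrb (heme breakdown). All 8 were found, and all 8 reached 10 CPM (UMIs of a gene per 1e6 UMIs) in at least 1 library.

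The cells were bone marrow cells of 129Sv wild-type mice, grown in medium with 10% serum and M-CSF at 50 ng/ml, the growth factor under which marrow cells become macrophages. On day 7 one culture received 1 µg/ml of a truncated, non-polymerizing form of Tamm-Horsfall protein (THP, or uromodulin, a protein that the kidney secretes), and the other received the vehicle, 5% dextrose; both were harvested after 18 h. The labels give no age for the mice. Each culture gave 1 single-cell library, in which a captured RNA molecule is tagged by cell and by molecule, so that counting distinct molecule tags (UMIs) counts molecules. With 1 library per group there is no replicate spread and no test, and treatment cannot be told apart from culture or library preparation; every interval below covers counting error only.

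After the cell filter the THP library held 12123 cells with 224825484 UMIs and the vehicle library 10978 cells with 207662132 UMIs, and 42 barcodes occurred in both libraries. Together the 8 genes made up 3.35% of UMIs with THP and 2.61% with vehicle, mostly through ferritin. Although the labels call the cells macrophages, marker genes placed only part of them there: macrophage-gated cells made up 36.1% of THP cells and 25.4% of vehicle cells. The remainder held monocytes, immature and mature neutrophils, myeloid progenitors, cells high in MHC class II or interferon-induced genes, an osteoclast-like class, a small class marked by Vsig4 and Cd209f, and stromal cells. Each of these 10 classes is an "X-like" gate set by markers that include none of the 8 genes, and the suffix is left out below. Cells below every marker cut stayed ungated, at 14.5% of THP and 9.93% of vehicle cells. Of the 10 erythroid markers none reached 10 CPM, their sum was 1.17 CPM with THP and 1.67 CPM with vehicle, and Hbb-bt, Car1 and Slc4a1 were at 0 UMIs.

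As background, cells take up transferrin-bound iron through the transferrin receptor and hold spare iron inside ferritin shells made of heavy (Fth1) and light (Ftl1) chains. Ferroportin, the Slc40a1 product, is the known iron exporter of animal cells, and heme oxygenase 1 opens the heme ring to free its iron. Iron regulatory proteins tie these genes together: when iron is scarce they bind iron-responsive elements, short RNA hairpins, blocking translation when the hairpin is in the 5′ UTR and stabilising the mRNA when it is in the 3′ UTR. Hence transcript counts alone do not report the amounts of ferritin or ferroportin protein.

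A search with 1 strict pattern located hairpins of this kind and the side of the coding sequence on which they lie. A search of the annotated UTRs for the loop CAGTGN, flanked by 5 paired bases on each side with an unpaired C before the 5′ arm, found windows in 4 of the 8 genes. Each window has 28 bases and is given 5′ to 3′ on the gene's strand as DNA, in GRCm38 coordinates, with the loop in capitals.
Fth1 5′ UTR, chr19:9982733-9982760, plus strand: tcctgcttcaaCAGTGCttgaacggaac
Ftl1 5′ UTR, chr7:45459779-45459806, minus strand: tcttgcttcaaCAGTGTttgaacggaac
Slc40a1 5′ UTR, chr1:45925465-45925492, minus strand: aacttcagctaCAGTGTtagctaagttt
Tfrc 3′ UTR, chr16:32631220-32631247, plus strand: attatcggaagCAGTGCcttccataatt
Tfrc 3′ UTR, chr16:32631599-32631626, plus strand: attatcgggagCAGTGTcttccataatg
Tfrc 3′ UTR, chr16:32631664-32631691, plus strand: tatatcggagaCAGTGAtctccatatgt
Tfrc 3′ UTR, chr16:32631711-32631738, plus strand: attatcgggaaCAGTGTttcccataatt
The same pattern occurred in the 5′ UTR of 31 (0.142%) and in the 3′ UTR of 129 (0.589%) of 21901 coding genes. Fth1, Ftl1 and Slc40a1 carried 1 window each, ahead of the coding sequence, and Tfrc carried 4 behind it. Of the 73 other iron and heme genes examined, only Alas2 held a window, in its 5′ UTR. A match is a description of these letters, and other hairpins that the pattern does not cover were not searched. A gene without a window is therefore not shown to lack such a hairpin or this control.

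Over all kept cells, ferroportin was lower and the divalent metal transporter Slc11a2 was higher in the THP library, and the other 6 genes differed by less than 1.5-fold. A gene was counted as different where the ratio of CPM + 1 reached 1.5-fold. By that rule 1 of the 8 genes was higher (Slc11a2) and 1 was lower (Slc40a1), against 2.33% of 8012 genes higher and 17.3% lower. At 2-fold the same 2 genes were counted, against 0.911% higher and 2.97% lower. The median log2 ratio of all genes was −0.18 and their central 95% ran from −1.04 to 0.56, so both genes lay outside that range and the remaining 6 inside it. With edgeR's TMM scaling, which shifted the median by 0.29, 563 genes were higher and 450 lower in place of 187 and 1387, and 5 of the 8 genes passed 1.5-fold upward.

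**Figure D1:**
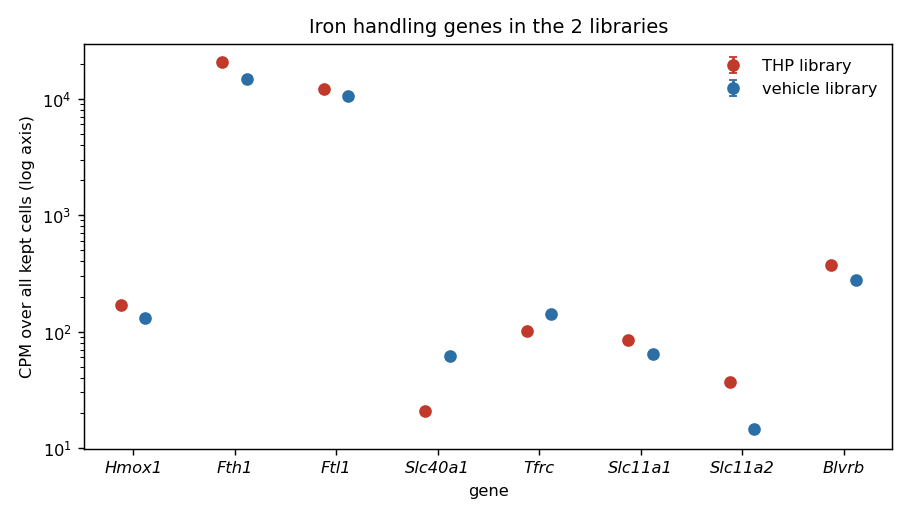
CPM of the 8 iron handling genes over all kept cells (y axis, log scale) in the THP library (red) and the vehicle library (blue); bars are exact Poisson 95% intervals, mostly smaller than the points. Slc40a1 stood at 20.9 against 61.6 CPM and Slc11a2 at 37.1 against 14.7 CPM, while the other 6 pairs lie closer together.

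The 3 importers did not move together. Tfrc encodes transferrin receptor 1, which brings transferrin-bound iron into the cell by endocytosis. Its level was 101 CPM with THP (95% interval 99.5 to 102) and 143 CPM with vehicle (141 to 144), which is −0.50 on the log2 scale. Slc11a2 encodes DMT1, which moves ferrous iron out of the endosome into the cytosol. It stood at 37.1 CPM with THP (36.3 to 37.9) and 14.7 CPM with vehicle (14.2 to 15.2), a 2.43-fold difference and a log2 ratio of 1.28, the 54th highest of 8012. Slc11a1 encodes NRAMP1, the related metal transporter of phagosomes, and had 84.0 CPM against 63.7 CPM, a log2 ratio of 0.39. Over 12 alternative settings the log2 ratio of Tfrc stayed between −0.52 and −0.21 and that of Slc11a2 between 0.93 and 1.55, whereas that of Slc11a1 reached down to 0.06 when only macrophage-type cells were summed.

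Both ferritin chains were modestly higher, the heavy chain more than the light chain. Fth1 had 20465 CPM with THP and 14809 CPM with vehicle, a log2 ratio of 0.47. Ftl1 had 12209 CPM and 10637 CPM, a log2 ratio of 0.20. The sign for Ftl1 did not hold under every setting: it was −0.03 when only macrophage-type cells were summed and −0.13 after correction for transcript length. The processed pseudogene Ftl1-ps1, whose reads can be confused with those of Ftl1, had 81.3 and 58.0 CPM, and the Fthl17a to Fthl17f genes had 0 UMIs in both libraries.

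Slc40a1, the exporter, had the lowest log2 ratio of the 8 genes. It stood at 20.9 CPM with THP (20.3 to 21.5) and 61.6 CPM with vehicle (60.5 to 62.6), 2.86-fold lower with THP. The log2 ratio of −1.52 was the 25th lowest of 8012 and ran from −2.00 to −1.21 over the alternatives. UMIs of Slc40a1 were found in 15.8% of THP cells and 29.9% of vehicle cells.

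The heme breakdown genes were slightly higher in the THP library. Hmox1 had 168 CPM with THP (167 to 170) and 131 CPM with vehicle (129 to 132), a log2 ratio of 0.36, and Blvrb, a biliverdin reductase that also reduces flavins, had 371 against 280 CPM, a log2 ratio of 0.41. Hmox1 was at −0.05 when only macrophage-type cells were summed. Much of the difference of these modestly higher genes moved with the mix of cells: with the same mix of classes given to both libraries, the log2 ratios were 0.26 for Fth1, 0.05 for Ftl1, 0.12 for Hmox1, 0.18 for Slc11a1 and 0.21 for Blvrb. On that same mix Slc40a1 remained at −1.51 and Slc11a2 at 1.10.

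The classes resolved where each gene was expressed. Levels within a class can include free RNA released by other cells, so a ceiling was computed, and some values below are set beside it. It takes another class's marker RNA in that class as a share of its level in the whole library. That share is then applied to the gene. The markers were C1qa, C1qb and C1qc in neutrophils, monocytes and progenitors, and Ngp, Camp and Ltf in the other classes. In those other classes the ceiling rests on granule-protein RNA and does not cover RNA from macrophages. These shares lay between 1.86% and 11.3% in every THP class except the Vsig4 class, where granule-protein RNA stood at 39.0%, and between 1.85% and 10.2% in the vehicle classes.

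By the 1.5-fold rule within classes, macrophages had 1 of the 8 genes higher (Slc11a2) and 1 lower (Slc40a1), against 2.23% of their genes higher and 15.3% lower. In the Vsig4 class 3 genes were lower (Slc40a1, Tfrc and Hmox1) against 18%, and 0 were higher against 4.59%. Immature neutrophils had 3 of 7 genes at 10 CPM higher (Hmox1, Fth1 and Slc11a1) against 4.6%, and Slc40a1 lower against 22.9%. Mature neutrophils had Fth1 higher against 6.56% and Slc40a1 lower against 39.3%. Slc40a1 was thus lower in all 4 of these classes, and Fth1 passed the limit in both neutrophil classes and in neither macrophage class.

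Myeloid progenitors had 4 of 8 genes higher (Hmox1, Fth1, Slc11a1 and Slc11a2) against 2.92%, and Slc40a1 lower against 16.9%. Of these, Hmox1 (32.2 CPM with THP, free RNA ceiling 19.1 CPM) and Slc11a1 (15.4 CPM, ceiling 9.52 CPM) did not keep their sign with clusters in place of gates, at −0.10 and −0.01. Interferon-high cells had Slc11a2 and Tfrc higher against 7.44% and Slc40a1 lower against 23.6%, and stromal cells had Slc40a1 and Hmox1 lower against 18.4% and 0 higher against 7.56%. The stromal ceiling rests on granule-protein RNA and does not cover RNA from macrophages. The macrophage gene Cd163 had 0 UMIs in THP and 41 UMIs in vehicle stromal cells, and Spic, another macrophage gene, had 6 and 16 UMIs. Cd163 was also lower with THP in macrophages, at 10.4 and 30.3 CPM. The median level of macrophage markers in stromal cells was 0.141 and 0.146 on the scale of the gates. MHC class II cells had Slc11a2 higher against 2.62% and 0 lower against 21.9%. Monocytes (1.92% higher, 17.5% lower) and osteoclast-like cells (2.69% and 20.2%) had 0 of the genes past the limit.

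**Figure D2:**
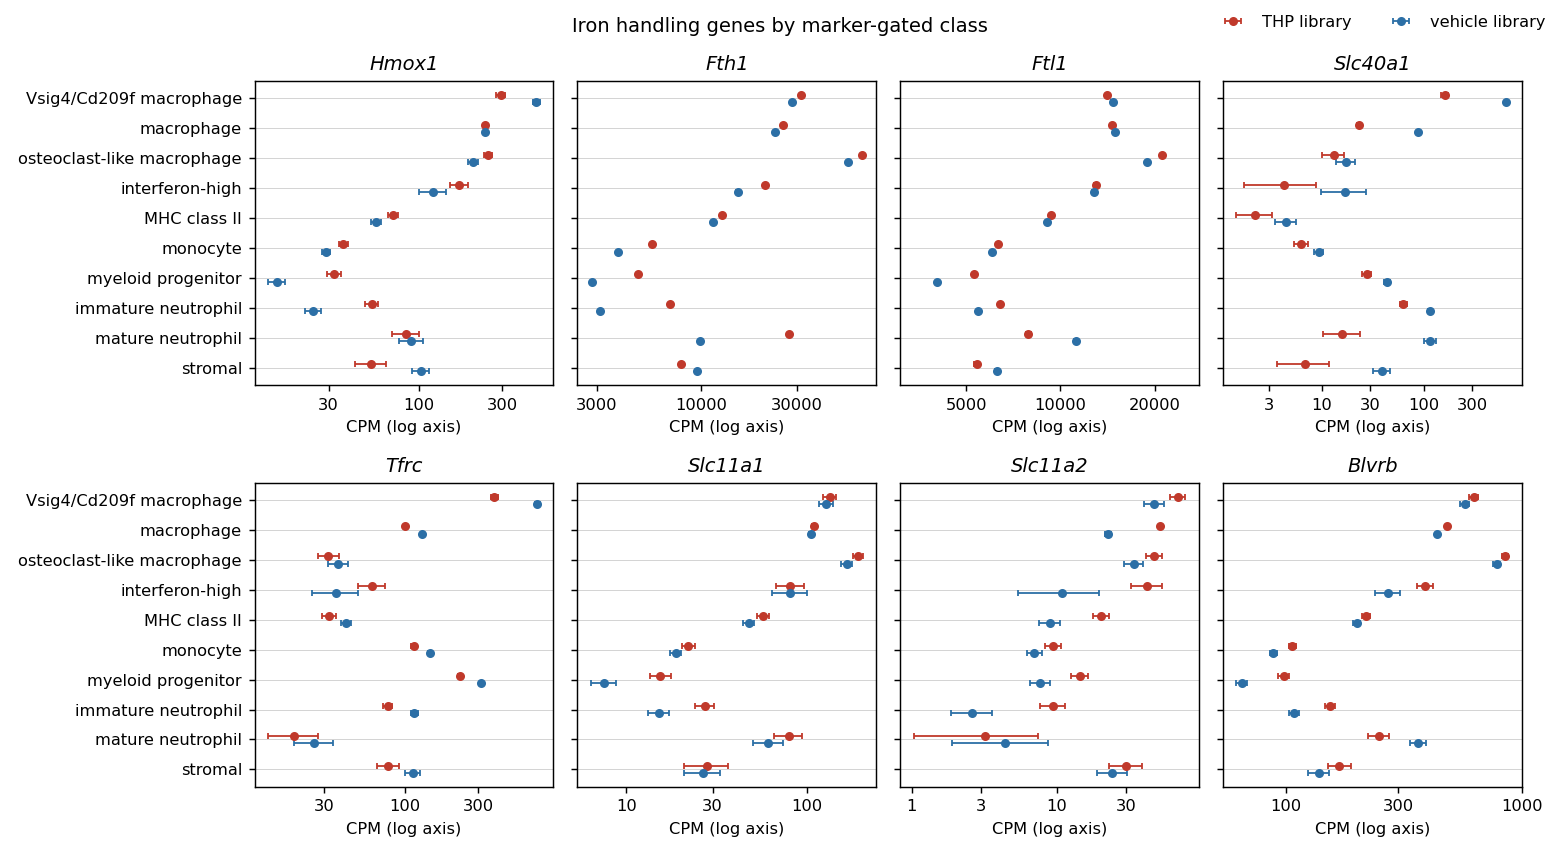
CPM (x axes, log scale) of each iron handling gene in the 10 marker-gated classes (y axis), with the THP library in red, the vehicle library in blue and exact Poisson 95% intervals as bars. For Slc40a1 every red point lies left of its blue point, and for Fth1 the widest gap is in mature neutrophils, at 27595 against 9877 CPM.

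Ferroportin was highest in the Vsig4 and Cd209f macrophages, a class of 171 THP and 167 vehicle cells. These cells had 162 CPM of Slc40a1 (150 to 176) with THP and 651 CPM (625 to 678) with vehicle, a log2 ratio of −2.00. In the larger macrophage class the level was 23.0 CPM (22.2 to 23.9) with THP and 88.7 CPM (86.6 to 90.8) with vehicle, a log2 ratio of −1.90. These levels lay well above the free RNA ceilings, which were at most 8.15 CPM in both classes. Both ceilings rest on granule-protein RNA and do not cover RNA from other macrophages.

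Clustering without the iron and heme genes placed most macrophages of the libraries in different clusters. Cluster 3 held 72.2% of THP and 1.76% of vehicle macrophages, and cluster 15 held 1.14% and 59.4%. Clusters 7 and 12 held cells of both libraries, and the genes were summed over their 1009 THP and 961 vehicle macrophages alone, a choice made after seeing the data. Slc40a1 was at 76.8 and 208.7 CPM there, a log2 ratio of −1.43, and Slc11a2 at 58.2 and 29.8 CPM, a log2 ratio of 0.94. Taken singly, the clusters gave −0.93 and −1.65 for Slc40a1 and 0.98 and 0.87 for Slc11a2. Hmox1 differed in sign between them, at 0.23 in cluster 7 and −0.41 in cluster 12. Tfrc was at −0.15 in cluster 7, with an interval that held 0, and at −0.48 in cluster 12.

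Neutrophils also held ferroportin transcripts. Immature neutrophils, gated on granule-protein genes, had 63.4 CPM (58.7 to 68.4) with THP and 116 CPM (111 to 122) with vehicle. Mature neutrophils had 15.9 CPM (10.3 to 23.5) from 25 UMIs with THP and 116 CPM (101 to 133) from 211 UMIs with vehicle. Thus both neutrophil classes stood at the same level in the vehicle library, whereas in the THP library the mature class was lower, and the log2 ratios were −0.87 and −2.79. Clusters used in place of the gates gave −0.64 and −1.62, where the cluster for the mature class also held 402 THP and 757 vehicle immature-gated cells. In the mature class the median log2 ratio of all genes was −0.40, lower than the −0.16 of the macrophage class.

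The remaining classes held Slc40a1 at 43.7 CPM or less. Myeloid progenitors had 27.5 and 43.7 CPM, monocytes 6.23 and 9.31 CPM, and stromal cells 6.84 and 38.9 CPM, with THP given first. Interferon-high cells had 4.25 and 16.8 CPM, from 7 and 17 UMIs. Osteoclast-like cells had 13.1 and 17.3 CPM, and the interval of their log2 ratio, −0.89 to 0.08, held 0. The cells high in MHC class II had 2.22 and 4.44 CPM, near their free RNA levels of 2.14 and 3.75 CPM. These values are not read as expression by these cells. Across the 10 classes Slc40a1 was lower with THP beyond counting error in 9 and by at least 1.5-fold in 7. The 9 include the MHC class II cells, whose levels lay near their free RNA levels, and the 7 do not. The part of free RNA in the difference of the MHC class II cells was not tested. The Vsig4 class was at the top and the MHC class II cells were at the bottom in both libraries.

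Within macrophages, fewer THP cells carried the transcript. After thinning each cell to 5000 UMIs, 7.43% of THP macrophages (6.66% to 8.26%, exact binomial interval) and 20.8% of vehicle macrophages (19.3% to 22.4%) had a Slc40a1 UMI; unthinned, these shares were 18.7% and 38.4%. In the Vsig4 class 76 of 158 thinned THP cells and 144 of 160 thinned vehicle cells had one. In the MHC class II cells, where the gene was near its free RNA level, the thinned shares were 1.00% and 1.62%. Median depths were 22138.5 and 24245.5 UMIs for macrophages and 13068 and 18003 for the MHC class II cells. Transcripts were concentrated in few cells: taking both macrophage classes together, the 10% of cells with most UMIs of the gene held 81.8% of Slc40a1 UMIs with THP and 61.9% with vehicle. At least 10 UMIs were found in 61 of 4545 THP cells and in 322 of 2953 vehicle cells.

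Slc40a1 went with complement C1q, a product of mature macrophages. Cells of both macrophage classes were split into 3 bins by the sum of C1qa, C1qb and C1qc, with the same edges in both libraries. Slc40a1 was 5.90 and 17.5 CPM in the lowest bin, 9.35 and 42.3 CPM in the middle bin, and 73.5 and 311 CPM in the highest bin, THP first. The exporter was thus lower with THP at each C1q level, by 2.69-fold, 4.19-fold and 4.18-fold. C1q genes are among the markers of the macrophage gate.

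Tfrc followed the same gradient, with 76.5 and 82.5 CPM in the lowest bin and 172 and 301 CPM in the highest. Hmox1 differed in sign along it, at 237 and 219 CPM in the lowest bin and 255 and 314 CPM in the highest. Slc11a2 varied less with C1q and was higher with THP in each bin, at 49.6 and 19.2, 49.7 and 21.0, and 57.7 and 31.5 CPM. In the highest bin Spic, the transcription factor of red pulp and other iron-recycling macrophages, had 57.6 and 32.9 CPM, whereas Cd163, the hemoglobin-haptoglobin receptor, had 44.3 and 125 CPM.

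**Figure D3:**
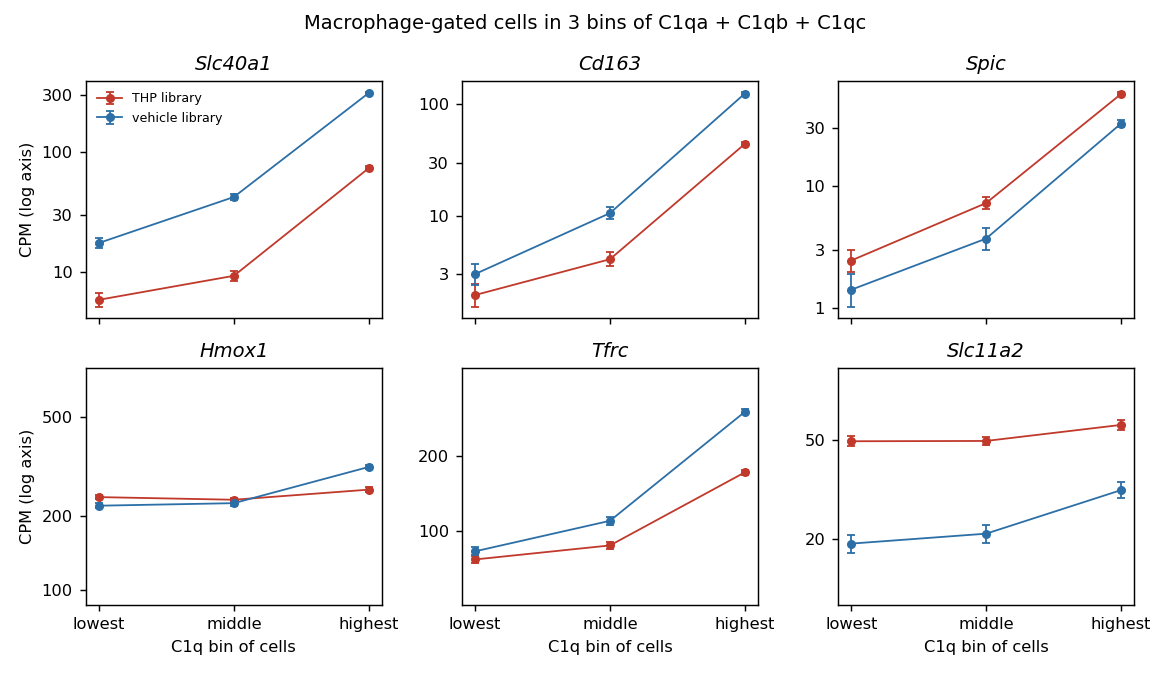
CPM (y axes, log scale) of Slc40a1, Cd163, Spic, Hmox1, Tfrc and Slc11a2 in macrophages split into 3 bins by their C1q level (x axes), THP in red and vehicle in blue, bars as exact Poisson 95% intervals. Slc40a1 climbs to 311 CPM in the vehicle library and to 73.5 CPM in the THP library, while Slc11a2 keeps a gap in every bin.

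Ferritin heavy chain showed its largest difference outside macrophages. In mature neutrophils Fth1 had 27595 CPM with THP and 9877 CPM with vehicle, a log2 ratio of 1.48. In immature neutrophils it had 6961 and 3100 CPM, a log2 ratio of 1.17. The free RNA levels were 1861 and 984 CPM in the mature class and 1990 and 1172 CPM in the immature class, below the measured values in each case. Clusters in place of gates gave log2 ratios of 1.89 and 0.93. The cluster used for the mature class was mixed: 50.3% of its cells were mature-gated, and 402 THP and 757 vehicle cells were immature-gated.

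The other classes differed less. Myeloid progenitors had 4847 and 2828 CPM of Fth1 (log2 ratio 0.78), against free RNA levels of 2318 and 815 CPM. The median progenitor had 16.6 and 11.6 Fth1 UMIs per 10000. At the 90th percentile of progenitors the values were 74.5 and 20.4, so the libraries differed most in the upper tail. Monocytes had 5646 and 3852 CPM (0.55), interferon-high cells 20821 and 15211 CPM (0.45), and MHC class II cells 12716 and 11509 CPM (0.14). Macrophages had 25784 and 23318 CPM (0.15). The osteoclast-like class had the highest level in both libraries, at 64030 and 54333 CPM (0.24). In the Vsig4 class the ratio was 0.15, at 31620 and 28573 CPM against free RNA levels of 7991 and 1505 CPM. Its sign turned under stricter gates, and in stromal cells the ratio was −0.27. By size, mature neutrophils ranked 3 of the 10 classes with THP and 6 with vehicle, and no neighbouring classes had overlapping Fth1 intervals.

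The light chain did not follow. Ftl1 in mature neutrophils was lower with THP, at 7897 against 11214 CPM (log2 ratio −0.51), was slightly higher in immature neutrophils, at 6392 against 5454 CPM (0.23), and differed little in macrophages, at 14592 against 14933 CPM (−0.03). Its largest positive ratio, 0.39, was in myeloid progenitors, with 5283 and 4040 CPM, against free RNA levels of 1383 and 585 CPM.

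Because both chains are read in the same cells, their ratio does not depend on library scaling. UMIs count captured molecules and are not adjusted for transcript length, so the ratio is compared between libraries and classes and not read as a protein ratio. Mature neutrophils had 3.49 Fth1 UMIs per Ftl1 UMI (3.43 to 3.57) with THP and 0.881 (0.863 to 0.899) with vehicle, a 3.97-fold difference. Immature neutrophils had 1.09 and 0.568, monocytes 0.892 and 0.638, and progenitors 0.917 and 0.700. Macrophages had 1.77 and 1.56 and osteoclast-like cells 3.03 and 2.88. The ratio was higher in the THP library in 9 of the 10 classes; stromal cells, at 1.47 and 1.52, had overlapping intervals.

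**Figure D4:**
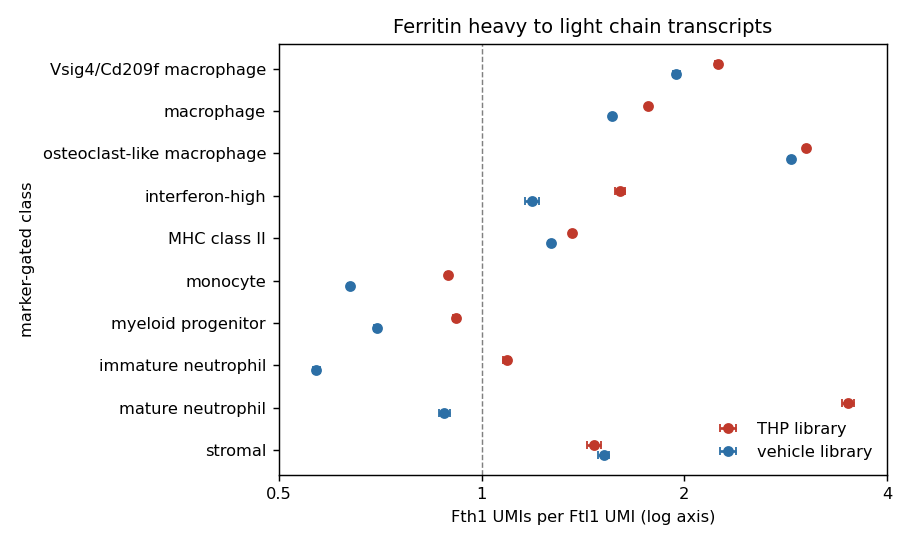
Fth1 UMIs per Ftl1 UMI (x axis, log scale) in the 10 marker-gated classes (y axis), THP in red and vehicle in blue, with 95% counting intervals; the dashed line marks equal UMIs. Mature neutrophils lie at 3.49 with THP and 0.881 with vehicle, on opposite sides of the line.

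The shift was seen across mature neutrophils and not in a few cells. Fth1 made up a median 76.8% of a cell's ferritin UMIs with THP, with quartiles of 62.1% and 88.4%, and a median 45.1% with vehicle, with quartiles of 33.3% and 56.8%. More Fth1 than Ftl1 UMIs were counted in 88.6% of 673 THP cells and in 37.0% of 835 vehicle cells. These cells are shallow, with median depths of 2041 and 1848 UMIs, so the ratio was also taken within 5 depth ranges. It was 3.26 against 0.941 between 1000 and 1500 UMIs, 4.13 against 1.05 up to 2000, 4.03 against 0.828 up to 3000, 2.48 against 0.532 up to 5000, and 1.90 against 0.903 above that, where only 19 and 22 cells remained. The ratio was higher with THP in each range. Whether the class held neutrophils of the same age in both libraries was not tested.

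Slc11a2, the endosomal iron transporter, was highest in the Vsig4 class, at 67.9 and 47.0 CPM (log2 ratio 0.52), and the macrophage class held 71.1% of the gene's THP UMIs and 56.7% of its vehicle UMIs. Macrophages had 51.6 CPM (50.3 to 52.9) with THP and 22.4 CPM (21.3 to 23.5) with vehicle, a log2 ratio of 1.17. Osteoclast-like cells had 46.7 and 33.8 CPM, interferon-high cells 41.9 and 10.9 CPM (69 and 11 UMIs), and MHC class II cells 20.2 and 8.95 CPM. Stromal cells had 29.99 and 24.0 CPM, so the gene was not limited to macrophage-type cells. Levels were low in monocytes, at 9.44 and 7.01 CPM, and progenitors, at 14.3 and 7.67 CPM.

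In neutrophils DMT1 transcripts were rare. Immature neutrophils had 9.37 and 2.62 CPM, against free RNA levels of 3.60 and 1.16 CPM, and mature neutrophils had 5 and 8 UMIs in all. Slc11a2 was higher with THP beyond counting error in 8 of the 10 classes, stromal cells and mature neutrophils being the exceptions, and past 1.5-fold in 4. After thinning, 23.7% of THP macrophages and 11.1% of vehicle macrophages had a UMI, and unthinned 63.4% and 42.0%. The UMIs were spread over more cells than those of Slc40a1: the top 10% of cells held 35.1% of Slc11a2 UMIs with THP and 41.2% with vehicle.

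Tfrc marked both ends of the culture. It was highest in the Vsig4 class, at 383 CPM (364 to 404) with THP and 732 CPM (704 to 760) with vehicle, and next in myeloid progenitors, at 230 and 317 CPM. Monocytes had 114 and 146 CPM, macrophages 100 and 131 CPM, and mature neutrophils were lowest at 19.1 and 25.9 CPM, with overlapping intervals. The receptor was lower with THP beyond counting error in 7 of the 10 classes. Interferon-high cells went the other way, at 61.3 and 35.7 CPM from 101 and 36 UMIs, and osteoclast-like cells and mature neutrophils did not differ beyond counting error.

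Dividing cells need iron and display transferrin receptor, and the THP library also had less of the proliferation gene Mki67, at 245 against 503 CPM. The 7 cycling markers differed in direction: 3 were higher and 4 lower with THP, and they summed to 1510 against 2048 CPM. Among cells with a high cycling score the log2 ratio of Tfrc was −0.50, and among cells with a low score it was −0.40. Mki67 was at 413 and 802 CPM in the high-score cells and at 8.61 and 12.1 CPM in the low-score cells. In macrophages alone the log2 ratios of Tfrc were −0.48 and −0.62. Mki67 was at 408 and 758 CPM in the high-score macrophages and at 10.6 and 10.5 CPM in the low-score macrophages. The high-score groups of the libraries thus still differed in Mki67. In low-score monocytes the log2 ratio of Tfrc was −0.22, with Mki67 at 9.69 and 22.1 CPM, and in low-score progenitors it was −0.38, with Mki67 at 8.43 and 20.1 CPM. The part of cycling in the Tfrc difference was not tested.

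Slc11a1 and Blvrb shared with ferritin heavy chain the ends of their class order: osteoclast-like cells first, the Vsig4 class next, and progenitors last. Slc11a1 had 191 and 166 CPM in osteoclast-like cells, 133 and 128 CPM in the Vsig4 class, 109 and 105 CPM in macrophages and 79.0 and 61.1 CPM in mature neutrophils. Differences were largest where the gene was low: progenitors had 15.4 and 7.48 CPM, against free RNA levels of 9.52 and 3.51 CPM, and immature neutrophils 27.1 and 15.1 CPM. The progenitor difference was not kept by clusters in place of gates, where the log2 ratio was −0.01.

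Blvrb ranged from 98.2 and 65.3 CPM in progenitors (free RNA levels 42.0 and 15.4 CPM) to 851 and 784 CPM in osteoclast-like cells. It was higher with THP beyond counting error in 9 classes and at most 0.58 on the log2 scale. Mature neutrophils were the exception, at 248 CPM with THP and 363 CPM with vehicle, a log2 ratio of −0.55, so that in this class Blvrb and Ftl1 were both lower while Fth1 was higher.

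Hmox1, the heme-opening enzyme, differed in sign between classes. The Vsig4 class had the most, 295 CPM (278 to 313) with THP and 474 CPM (451 to 497) with vehicle, a log2 ratio of −0.68 and of −0.98 under stricter gates. The part that the granule-protein RNA of this class had in its values was not tested; the free RNA ceilings for Hmox1 there were 65.7 and 13.3 CPM. Macrophages had 239 CPM in each library, with an interval of the log2 ratio from −0.03 to 0.02. Osteoclast-like cells had 251 and 205 CPM.

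Interferon-high cells had 169 and 120 CPM of Hmox1, against free RNA levels of 9.20 and 8.21 CPM. Mature neutrophils had 83.5 and 90.2 CPM, with overlapping intervals, against 15.3 and 8.69 CPM. Immature neutrophils had 53.2 and 24.3 CPM, against free RNA levels of 16.4 and 10.4 CPM, and progenitors 32.2 and 15.1 CPM, against 19.1 and 7.20 CPM. With clusters in place of gates the log2 ratio in immature neutrophils was 0.68 and that in progenitors −0.10, so the progenitor value changed sign. Stromal cells had 52.6 and 102 CPM. The gene was higher with THP beyond counting error in 6 classes and lower in 2.

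Over the 20 class-by-library sums the 8 genes fell into a tight group and 3 looser ones. The points share libraries and depth, so these correlations are descriptions only. Pearson's r of log2(CPM + 1) was 0.97 between Fth1 and Slc11a1, 0.97 between Slc11a1 and Blvrb, 0.93 between Hmox1 and Blvrb and 0.91 between Fth1 and Ftl1. Slc11a2 joined them less closely, with r between 0.60 and 0.74. Slc40a1 had its highest value with Tfrc, 0.58, and at most 0.30 with any other of the genes; Tfrc had 0.29 with Slc11a2 and 0.0042 or less with the rest.

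The genes most like each member, by the highest r among 8004 candidates, followed the same division. Hmox1 was closest to the lysosomal genes Ctsd (r = 0.957), Atp6ap1 and Ctsb. Fth1 was closest to Ftl1-ps1, Gpr137b and Ctsd, and Ftl1 to Ftl1-ps1, Cd68 and Mitf. Slc11a1 had Ftl1-ps1, Gpr137b and Mitf, and Blvrb had Ftl1-ps1, Gpr137b and Ctsd. Tfrc was closest to Hebp1 (0.930), Paox and Ada, Slc11a2 to Gdpd1 (0.943), Romo1 and Slc25a1, and Slc40a1 to Nck1 (0.881), Pitpnc1 and Galc.

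Of 74 further genes listed, 73 were in the files and 47 reached 10 CPM; 1 was higher by at least 1.5-fold (2.33% of all genes) and 4 were lower (17.3% of all genes), and their median log2 ratio of −0.08 stood beside −0.18 for all genes. In the TMM scaling 3 were higher and 2 lower.

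Of these, 2 genes belong to heme and hemoglobin recycling by macrophages. Spic was higher, at 11.6 against 4.82 CPM (log2 ratio 1.12), and Cd163 was lower, at 8.66 against 17.5 CPM (−0.93). Both had their highest level in the Vsig4 class, where Spic had 184 and 85.7 CPM and Cd163 had 170 and 299 CPM. The larger macrophage class held most of their UMIs, 68.1% and 63.1% for Spic and 61.2% and 64.5% for Cd163. Spic is known as an activator of Slc40a1 in iron-recycling macrophages, and in this class the levels of these genes differed in opposite directions.

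Bach1, a heme-sensing repressor of Hmox1, Slc40a1 and the ferritin genes, was lower at 41.9 against 67.4 CPM (−0.67). It was lower beyond counting error in 9 of the 10 classes, including macrophages, at 43.0 and 71.9 CPM, and mature neutrophils, at 119 and 233 CPM. Over all cells it was under the 1.5-fold limit at −0.39 with TMM factors, −0.40 with RLE factors, −0.41 after length correction and −0.58 with a pseudocount of 10 CPM. The mitochondrial iron importer Slc25a37 had 19.7 and 30.3 CPM (−0.59), close to the limit, and was under it in 9 of the alternatives, at −0.32 with TMM factors.

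By role, 0 of 3 tested genes of iron uptake, 0 of 3 of heme breakdown, 0 of 3 of storage and chaperones and 0 of 7 of heme synthesis passed 1.5-fold in either direction; with so few genes nothing is read from these counts beside 2.33% and 17.3%. The mitochondrial group had 2 of 14 lower and a median of 0.01, and the regulators had 1 of 10 higher and 1 lower. The ferritinophagy receptor Ncoa4 was at 43.8 and 64.5 CPM and the rate-limiting heme synthesis gene Alas1 at 158 and 232 CPM, both within the 1.5-fold limit on the log2 scale at −0.55. Ncoa4, Alas1 and the next gene are named after their values were seen. Ceruloplasmin (Cp), the ferroxidase that works with ferroportin, stayed below 10 CPM over all cells at 7.20 and 1.76 CPM, from 1619 and 365 UMIs; macrophages had 9.32 and 2.01 CPM of it and stromal cells 94.7 and 47.7 CPM.

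**Figure D5:**
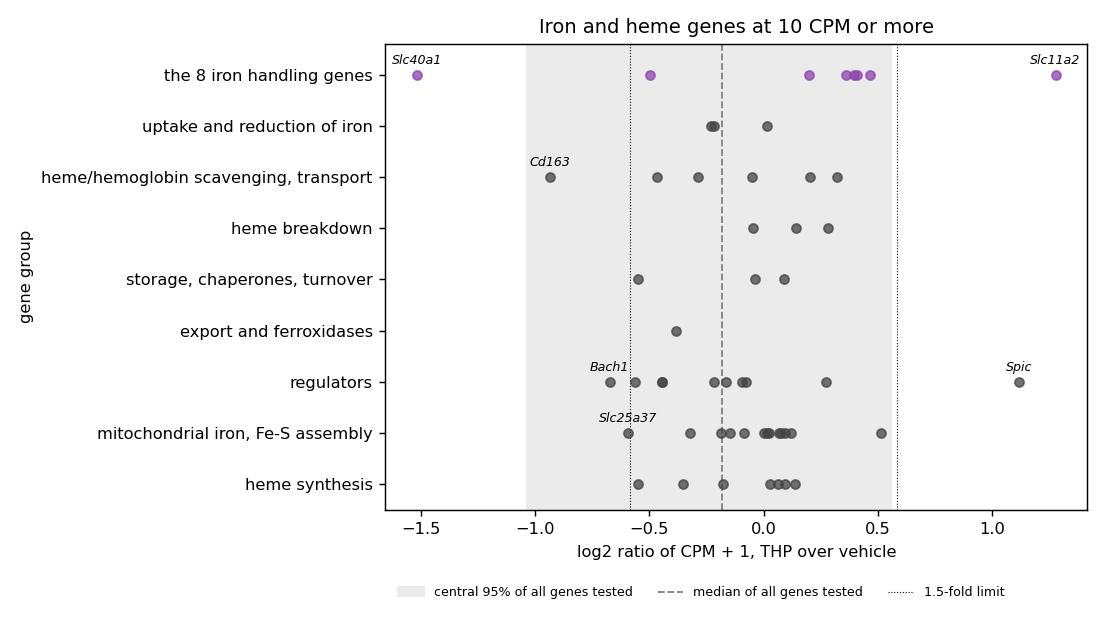
Log2 ratio of CPM + 1, THP over vehicle (x axis), for the 8 iron handling genes (top row, purple) and the other iron and heme genes at 10 CPM or more by role (grey), with 1 of them left out. The shaded band is the central 95% of all 8012 genes, the dashed line their median of −0.18 and the dotted lines the 1.5-fold limit; Slc40a1 lies left of the band and Slc11a2 and Spic lie right of it.

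Promoter letters offered no shared feature. RefSeq windows of 300 bases on GRCm38.p6, 250 before to 50 after each start, covered 5 of the 8 genes (8 windows). The antioxidant response element TGANNNNGC, searched on both strands, occurred in 41.3% of 32851 windows, and in those of Slc11a1 and Blvrb but not of Fth1, Ftl1 or Tfrc. The E-box CACGTG occurred in 7.15% of windows and in none of the 8. The NF-kB motif (3 G, any 5 bases, 2 C) occurred in 50.8% of windows and 53.5% of genes. It lay in some but not all windows of Blvrb and in those of Ftl1, Tfrc and Fth1. A match or its absence in these windows says nothing about binding of the factor.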

How the data were processed

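The deposited values are raw UMI counts per gene and cell barcode, with matrix software version 3.1.0 and format 2 per the file headers; Cell Ranger, STAR, bcl2fastq and mm10 are named in the submitters' processing notes. For the annotation release, the sources used here name none.

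Barcodes were kept with at least 500 genes, 1000 UMIs and at most 10% mitochondrial UMIs. UMIs were summed over kept cells or classes and divided by the total (CPM). Log2 ratios compare CPM + 1 in THP with vehicle and so understate differences of low genes; a gene was tested by size with at least 10 CPM in 1 library. Intervals are exact Poisson for CPM and exact (Clopper-Pearson) binomial for shares, at 95%, and cover counting error only. Those of log2 ratios are for the ratio of CPM without the added 1, so for low genes they can exclude the printed ratio. The size rule was tested on simulated data. No doublets were removed; an alternative omitted the 5% of cells with most UMIs.

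A cell joined the class with the highest ratio of mean marker level, log2(1 + UMIs per 10000), to a cut between 0.75 and 2.5, and stayed ungated below every cut (1756 THP and 1090 vehicle cells). Cells over the cuts for both Vsig4 and macrophage markers went to the Vsig4 class. Cuts and this precedence were chosen after the data were examined; 1157 THP and 861 vehicle cells lay within 10% of a cut. Classes with under 50 cells in a library were not used. Classes overlap gradually, so differences within one can include shifts in its make-up. Cells with a cycling score of at least 1.5 or below 0.25 formed the cycling groups. Leiden clusters made without iron and heme genes (resolution 0.5) replaced gates as an alternative.

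Named were the 8 genes, every list gene past 1.5-fold (1 is not reported here), the 3 genes most correlated with each member, ferritin pseudogenes with UMIs, and those the text marks as chosen later. The members and lists were chosen with earlier results of these data known. Hairpins and coordinates came from GENCODE M21 on GRCm38, promoters from RefSeq GRCm38.p6. Tools were Python 3.11.15, scanpy 1.11.5, igraph 0.11.9, statsmodels 0.14.6, R 4.3.3 and edgeR 4.0.16 (scaling factors only).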

Additional observations from a re-analysis of the deposited data

Results flagged for a closer look

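For 5 of the 8 genes the difference between the libraries had opposite signs in 2 classes, each beyond counting error; the difference between the classes was not tested, because there was 1 library per group. The gap between the 2 log2 ratios was 2.04 for Hmox1, which was 1.10 in immature neutrophils and −0.94 in stromal cells. It was 1.75 for Fth1, at 1.48 in mature neutrophils and −0.27 in stromal cells, and 1.696 for Tfrc, at 0.77 in interferon-high cells and −0.93 in the Vsig4 class. It was 0.89 for Ftl1, at 0.39 in progenitors and −0.51 in mature neutrophils, and 1.13 for Blvrb, at 0.58 and −0.55 in the same classes. Stromal cells numbered 77 with THP and 70 with vehicle, with median depths of 20559 and 39385 UMIs. They held 0 and 41 UMIs of Cd163 and 6 and 16 UMIs of Spic, genes highest in the Vsig4 class. Their median level of macrophage markers was 0.141 and 0.146 on the scale of the gates. The parts of macrophage RNA in the stromal values and of free RNA in the progenitor values were not tested.

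The 1070 THP and 606 vehicle barcodes that the cell filter left out also held these genes, in data outside the comparisons above. There, 5 genes stood higher in the THP library than in the vehicle library: the log2 ratio was 0.50 for Fth1 (8877 and 6288 CPM), 0.15 for Ftl1, 1.03 for Slc11a1 (107 and 51.8 CPM), 1.19 for Slc11a2 (36.5 and 15.4 CPM) and 0.52 for Blvrb. Slc40a1 was lower there too, at 26.9 and 125 CPM, a log2 ratio of −2.18, as was Tfrc, at 206 and 368 CPM (−0.83, interval −1.02 to −0.65). Hmox1 was at −0.20, with an interval from −0.47 to 0.06.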

How the results depend on the processing

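No paired analysis was possible because each group has 1 library. The count of the 8 genes higher by 1.5-fold, 1, was 5 with TMM and 5 with RLE factors and 2 with equal weight per cell; the count lower stayed at 1 in every setting. Of the iron and heme list, 1 gene was higher, and 3 were with TMM, 3 with RLE, 2 with the same mix of classes, 0 with a pseudocount of 10 CPM and 2 without the low-value filter. The 4 lower list genes became 2 with TMM, 2 with RLE, 2 after length correction, 1 with the pseudocount of 10 and 0 at 2-fold. All genes counted higher numbered 187, and 563 with TMM, 546 with RLE and 73 at 2-fold; those lower numbered 1387, and 450, 460 and 238, with 797 after length correction and 647 with the pseudocount of 10. Signs turned for Hmox1 (−0.053) and Ftl1 (−0.034) in macrophage-type cells alone, Ftl1 after length correction (−0.13), Fth1 in the Vsig4 class under stricter gates (−0.0070), and Hmox1 (−0.10) and Slc11a1 (−0.010) in progenitors with clusters in place of gates; the causes were not tested. A further 6 values whose interval held 0 also changed sign: Hmox1 in macrophages (0.040 with looser gates, 0.027 with clusters) and in mature neutrophils (0.26 with clusters), Slc11a1 in interferon-high (−0.03, looser gates) and stromal cells (−0.0034, stricter gates), and Tfrc in osteoclast-like cells (0.08, stricter gates). Of the values of single genes that did not reverse beyond their interval, 190 stayed within it and 172 moved outside it. That interval is for the ratio without the added 1 CPM and can exclude the main value, as for Spic (1.12, interval 1.16 to 1.38). These 2 counts are therefore no measure of stability. Depth limits mature neutrophils most.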
